A study of Mus musculus with 6 samples.

Results

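The genes described here carry out or restrain apoptosis and necroptosis in the mouse: caspases, the Bcl2 family, the factors that mitochondria release, the inhibitor of apoptosis (IAP) proteins, the death receptors with their adaptors, and the necroptosis kinases with their effector. They were chosen by gene symbol, as a list of 37 genes, and each array probe annotated to one of them was followed singly. Of the 37, 34 had a named probe among the 19057 genes named on the array, with 94 probes in all. Bax, Ripk1 and Trp53 were not analysed on the arrays here, and only their promoter windows were counted.

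Apoptosis starts either at mitochondria or at the cell surface. In the mitochondrial route, BH3-only proteins relieve the anti-apoptotic Bcl2 proteins' hold on pore-forming relatives, cytochrome c leaks out, and Apaf1 assembles it with Casp9 into the apoptosome. In the surface route, receptors such as Fas recruit Fadd and Casp8, and where Casp8 is not active the kinases Ripk1 and Ripk3 can instead switch on Mlkl, which breaks the plasma membrane in necroptosis. In the mouse, apoptosis accompanies the regression phase of the hair follicle and removes surplus germ cells in the testis, where the Bcl2 family sets how many survive.

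RNA of 6 samples of the OG2 mouse strain, which carries a green fluorescent protein gene under Pou5f1 (Oct4) regulatory sequence, was hybridised to Illumina bead arrays. HF was hair follicle of the dorsal skin at 2 months of age, HFGSC was germline stem cells derived from dorsal skin hair follicle at 4 months, and GSC was germline stem cells of the testis at 3 months, with 2 arrays in each group. All 3 groups were labelled adult, and the labels name no treatment, no number of animals and no pooling. The comparisons ask how the follicle-derived germline cells differ from hair follicle and from germline cells of the testis, and the labels do not tie the HF samples to the animals that gave the HFGSC cells.

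Levels below are normalized log2 intensities, and each difference is a difference of group means on that scale. A probe was detected where its detection p lay under 0.05, and it was tested where it was detected on both arrays of at least 1 group, which left 60 member probes of 30 genes among 19715 tested probes. Adjusted p-values are those of limma's moderated test on all 6 arrays with Benjamini-Hochberg adjustment over all tested probes, and a probe rose or fell where that value was under 0.05. A group of 2 arrays limits the precision, and an exact permutation test of 2 against 2 arrays cannot go below a two-sided p of 0.333. Nothing in the labels says that replicate arrays came from separate animals or cultures, so a p-value here speaks of the spread among these arrays alone, and that spread may be technical. In such bulk samples, fewer cells of a type and less RNA per cell cannot be told apart.

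Between 16094 and 19552 probes were detected per array, with 16094 and 16593 on the HF arrays and at least 18772 on the others. Member probes showed no such gap, with 58 and 51 of 94 detected in HF, 55 and 60 in HFGSC and 53 on each array of GSC. Of 10 spermatogonial markers, 3 were detected on both HF arrays (Etv5, Pou5f1 and Uchl1) and all 10 on both arrays of HFGSC and of GSC, with a summed level of 10.12 to 11.12 in HF, 15.79 to 16.55 in HFGSC and 16.50 to 16.53 in GSC. Keratinocyte markers went against the hair follicle label: of 9, only Itga6 and Krt10 were detected on both HF arrays, while Krt5, Krt14, Krt15, Krt1, Trp63 and Sfn were detected on both arrays of no group. Fibroblast markers were detected for 5 of 10 genes in HF, 9 in HFGSC and 8 in GSC, with summed levels of 15.51 to 15.63, 14.75 to 15.998 and 14.48 to 14.55. Endothelial markers numbered 2 of 6 in HF (Cdh5 and Eng), 2 in HFGSC (Cdh5 and Tek) and 3 in GSC (Cdh5, Pecam1 and Tek). Their summed level was 12.07 to 12.13 in HF against 8.65 to 8.97 on the other arrays, but the markers went in different directions. Of 5 tested endothelial probes, 1 fell in HFGSC against HF, and 1 rose and 1 fell in GSC against HF. Their median differences were 0.18 and 0.13. Leukocyte markers were detected for 0 of 8 genes in HF, 0 in HFGSC and 2 in GSC (Cd3e and Fcer1g), with summed levels of 8.11 to 8.17, 8.19 to 8.27 and 10.25 to 10.64. Melanocyte markers were detected for 0 of 7, 3 and 3 genes and Sertoli markers for 2 of 6, 3 and 2 genes in HF, HFGSC and GSC. The HF arrays are called the follicle arrays by their label only, and the part of these other cell types in the results below was not tested.

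Promoter windows of 4 members with a RefSeq entry are printed as examples of the array patterns described below: Mlkl and Casp8 were lower in both germline groups than in HF, Diablo was higher, and 1 Casp9 probe was high in HFGSC. Bik, which had a larger difference than Diablo, is not printed. Each window is from RefSeq on GRCm38.p6, runs from 250 bases before to 50 bases after the gene's start, and is written 5′ to 3′ on the gene's strand with CG dinucleotides in capitals. Mlkl lies at chr8:111338156-111338455 on the minus strand, Casp8 at chr1:58802252-58802551 on the plus strand, Casp9 at chr4:141793362-141793661 on the plus strand and Diablo at chr5:123524115-123524414 on the minus strand.
Mlkl: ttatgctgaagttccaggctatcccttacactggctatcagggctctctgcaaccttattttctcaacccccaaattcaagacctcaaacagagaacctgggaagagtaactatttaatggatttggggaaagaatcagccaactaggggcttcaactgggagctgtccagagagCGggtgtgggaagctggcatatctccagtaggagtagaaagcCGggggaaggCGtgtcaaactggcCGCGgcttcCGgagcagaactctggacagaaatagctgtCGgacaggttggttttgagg
Casp8: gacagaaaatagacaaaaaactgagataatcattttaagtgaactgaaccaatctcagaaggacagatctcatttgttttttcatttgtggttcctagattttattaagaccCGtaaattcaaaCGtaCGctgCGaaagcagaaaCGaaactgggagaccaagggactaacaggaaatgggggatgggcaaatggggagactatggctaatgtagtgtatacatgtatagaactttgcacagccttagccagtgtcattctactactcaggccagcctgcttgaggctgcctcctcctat
Casp9: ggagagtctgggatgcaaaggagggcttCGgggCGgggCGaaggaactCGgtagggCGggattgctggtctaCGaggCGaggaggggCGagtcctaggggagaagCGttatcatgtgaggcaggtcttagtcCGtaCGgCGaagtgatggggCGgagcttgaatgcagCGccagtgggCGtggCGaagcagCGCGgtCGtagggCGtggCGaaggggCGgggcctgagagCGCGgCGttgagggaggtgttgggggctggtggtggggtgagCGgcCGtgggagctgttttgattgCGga
Diablo: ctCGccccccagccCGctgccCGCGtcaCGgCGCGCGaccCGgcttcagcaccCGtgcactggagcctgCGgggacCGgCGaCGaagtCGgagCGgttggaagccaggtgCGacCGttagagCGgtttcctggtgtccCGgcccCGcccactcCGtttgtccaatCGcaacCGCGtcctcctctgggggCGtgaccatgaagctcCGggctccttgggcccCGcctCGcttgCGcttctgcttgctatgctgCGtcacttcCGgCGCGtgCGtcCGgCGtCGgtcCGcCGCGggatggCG
The windows of Mlkl and Casp8 held 7 and 5 CG dinucleotides, and those of Casp9 and Diablo held 28 and 42.

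Member probes moved in both directions between HF and the germline groups. Mlkl, Casp8, Bak1, Bok, Cycs and 1 Fadd probe fell in both HFGSC and GSC, while Bik, Diablo, 1 Bmf probe, 1 Casp2 probe and 1 Casp9 probe rose in both. The 2 comparisons share the HF arrays, so a like direction in both is no independent support. In HFGSC against HF, 7 member probes of 7 genes rose and 9 of 6 genes fell, which is 26.7% of the 60, beside 22.5% called over all tested probes (13.4% higher and 9.1% lower). In GSC against HF, 6 probes of 6 genes rose and 17 of 11 genes fell, or 38.3%, beside 27.7% over all tested probes (15.7% higher and 12% lower). Under median scaling that second comparison gave 6 higher and 9 lower members, with the median difference of all tested probes moved from -0.02 to 0.12. The median member difference was -0.71 in HFGSC against HF and -0.86 in GSC against HF, where all tested probes had medians of -0.07 and -0.02. Of the falls, 4 of 9 in HFGSC and 7 of 17 in GSC were of probes that were tested through HF alone, where they had to be high. Those 4 were the tested probes of Mlkl and Bak1, Bok ILMN_1237404 and Fadd ILMN_2874409. In GSC, Tnfrsf1a ILMN_2469333 and both tested Bcl2 probes joined them. Among the 7 rises in HFGSC, 1, of Casp1, was of a probe tested through HFGSC alone. The risen Casp9, Bik, Fas and Bmf probes were tested through HFGSC and GSC and not through HF, so they had to be high in germline arrays. The risen Casp9, Bik, Bmf and Pmaip1 probes in GSC entered the test in the same way. The counts by direction and the medians carry that choice and support no direction.

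A simpler count, whether the arrays of 2 groups overlapped at all, carries the same choice. In HFGSC against HF 42 member probes (70%) did not overlap, 12 higher and 30 lower, beside 63.4% of all tested probes (30.4% higher and 32.9% lower). In GSC against HF 48 (80%) did not overlap, 12 higher and 36 lower, beside 65.9% (32.7% higher and 33.2% lower). Between HFGSC and GSC 16 (26.7%) did not overlap, 10 higher and 6 lower, beside 31.4% (13.7% higher and 17.7% lower).

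**Figure D1:**
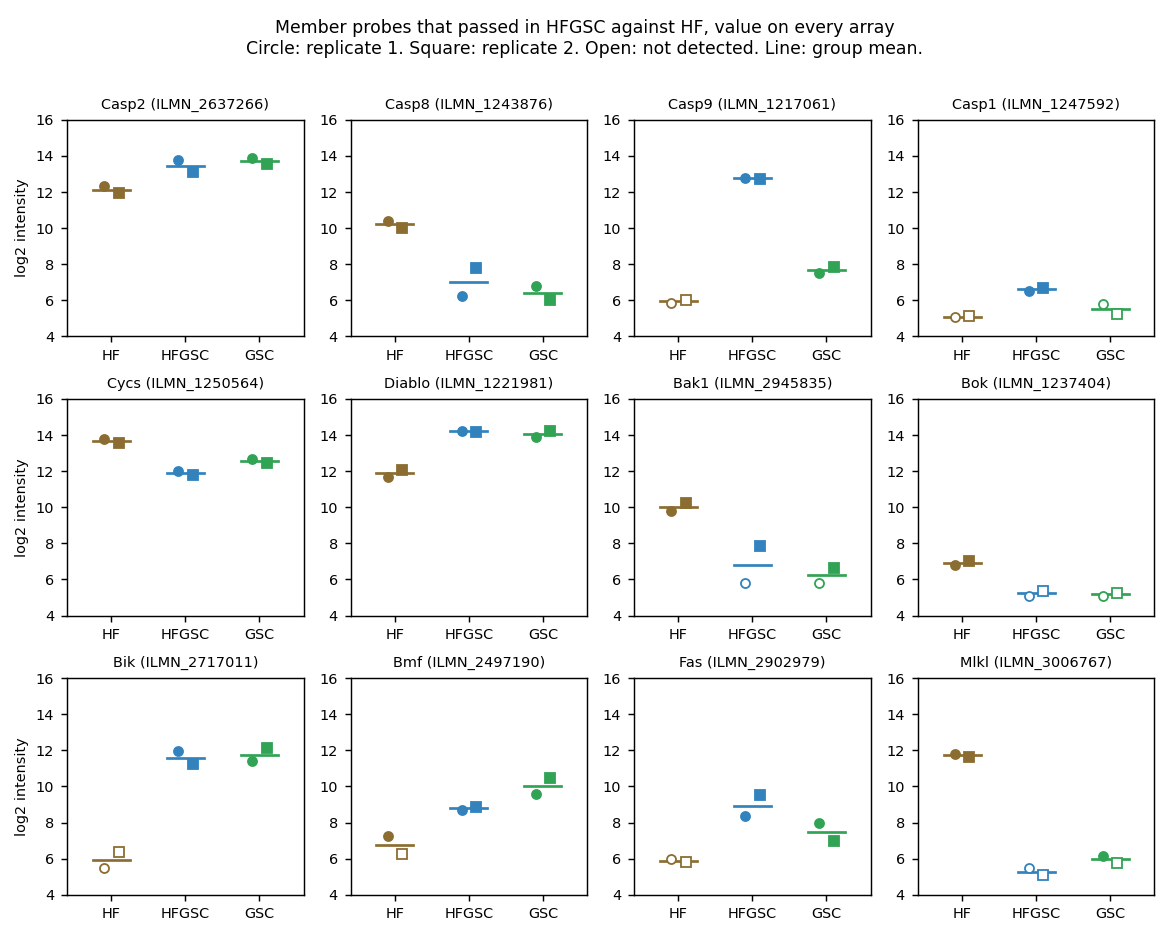
Normalized log2 intensity (vertical axis) on each of the 6 arrays for 1 probe each of 12 genes that passed in HFGSC against HF (Fadd is not drawn), with circles for replicate 1, squares for replicate 2, open symbols where the probe was not detected and a line at the group mean. Mlkl drops from 11.82 and 11.62 in HF to 5.48 and 5.07 in HFGSC, while Bik climbs from 5.46 and 6.37 to 11.95 and 11.24.

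The initiator caspases moved in different directions. Casp8, the initiator that Fadd recruits at death receptors, was measured by 2 probes, and its first read 10.41 and 10.02 on the HF arrays, 6.27 and 7.81 on HFGSC, and 6.78 and 6.00 on GSC. The HF arrays lay above all 4 germline arrays. This probe fell by 3.18 (SE 0.65, 9.03-fold, adjusted p = 0.0137) in HFGSC and by 3.82 (14.1-fold, adjusted p = 0.0061) in GSC. The second Casp8 probe read 10.35 and 10.17, 6.81 and 8.18, and 7.08 and 6.41 in the same order, and fell by 2.76 (6.78-fold, adjusted p = 0.0184) and by 3.52 (11.5-fold, adjusted p = 0.00663). Both probes gave the same picture. Without either HF array or without HFGSC replicate 1 the HFGSC calls were lost (highest adjusted p 0.0725 and 0.0983), and without GSC replicate 2 the GSC calls were lost (0.0522 and 0.0538).

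Casp9, the initiator that the apoptosome activates, had 4 probes that disagreed. The probe ILMN_1217061 was not detected in HF, at 5.88 and 6.02, and read 12.80 and 12.72 in HFGSC and 7.53 and 7.86 in GSC. The 3 groups did not overlap, and HFGSC stood far above the others. This probe was tested through the germline groups alone, where it had to be high. The difference from HF to HFGSC was 6.81 (SE 0.46, at least 79.3-fold higher, adjusted p = 0.000283), and this call was kept under all 15 alternatives. The rise from HF to GSC was at least 2.37-fold (adjusted p = 0.0301) and was lost when any single HF or GSC array was left out (highest adjusted p 0.14) and with the authors' log2 values (0.122). HFGSC exceeded GSC by 5.06 (95% interval 3.97 to 6.15, 33.4-fold, adjusted p = 0.0188), with the call lost when any array was left out (adjusted p 0.059 to 0.128).

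The other Casp9 probes showed nothing of that kind. ILMN_2674731, annotated to the same RefSeq transcript as ILMN_1217061, read 7.49 and 8.60 on HF, 6.22 and 7.16 on HFGSC, and 7.84 and 9.01 on GSC, so that it was lowest where the first probe was highest. Its differences from HF were -1.36 (adjusted p = 0.184) in HFGSC and 0.38 in GSC, and HFGSC minus GSC was -1.74 (95% interval -3.29 to -0.18, adjusted p = 0.652), the opposite direction to the first probe. ILMN_1255180, annotated to another transcript, read 7.05 and 6.52, 7.62 and 5.92, and 7.24 and 7.38, and did not pass in any comparison. ILMN_2758139, also annotated to the first transcript, was detected on no array. The probes' own sequences were not used here, so where on the gene each one lies is not stated.

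Casp2, an initiator-type caspase linked to DNA damage and to oocyte death in the mouse, rose by 1 of its 2 probes. ILMN_2637266 read 12.31 and 11.94 on HF, 13.77 and 13.11 on HFGSC, and 13.88 and 13.54 on GSC, with every germline array above both HF arrays. It rose by 1.31 (SE 0.31, 2.49-fold, adjusted p = 0.0222) in HFGSC and by 1.58 (adjusted p = 0.00963) in GSC. The HFGSC call was lost under median scaling, with no mean-variance trend and without either HF array or HFGSC replicate 1 (highest adjusted p 0.124), and the GSC call without HF replicate 2 or GSC replicate 1 (highest 0.0611). The other probe, ILMN_1228387, read 7.32 and 7.47, 7.95 and 6.35, and 8.04 and 7.60, with differences of -0.24 (adjusted p = 0.811) and 0.42 (adjusted p = 0.646). Casp6, an executioner caspase, gave differences of -0.29 and -0.15 in HFGSC and of 0.08 and 0.15 in GSC over its 2 probes, none of which passed.

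Of the inflammatory caspases, Casp1, which matures interleukin-1 beta and cuts gasdermin D, rose in HFGSC. Its probe was detected on both HFGSC arrays and on no other, at 6.50 and 6.71, with readings of 5.07 and 5.13 on HF and of 5.80 and 5.22 on GSC. The HFGSC arrays lay above all the others. The difference from HF was 1.51 (SE 0.27, at least 1.12-fold higher, adjusted p = 0.00902) and was kept under all 15 alternatives, while in GSC it was 0.42 (adjusted p = 0.3). Casp4, which senses bacterial lipopolysaccharide inside cells, had 1 tested probe that read 6.81 and 7.47, 7.75 and 8.86, and 7.82 and 6.25, with a difference of 1.16 (adjusted p = 0.262) in HFGSC. Casp12, tied to endoplasmic reticulum stress, was detected on no array by any of its 3 probes.

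**Figure D2:**
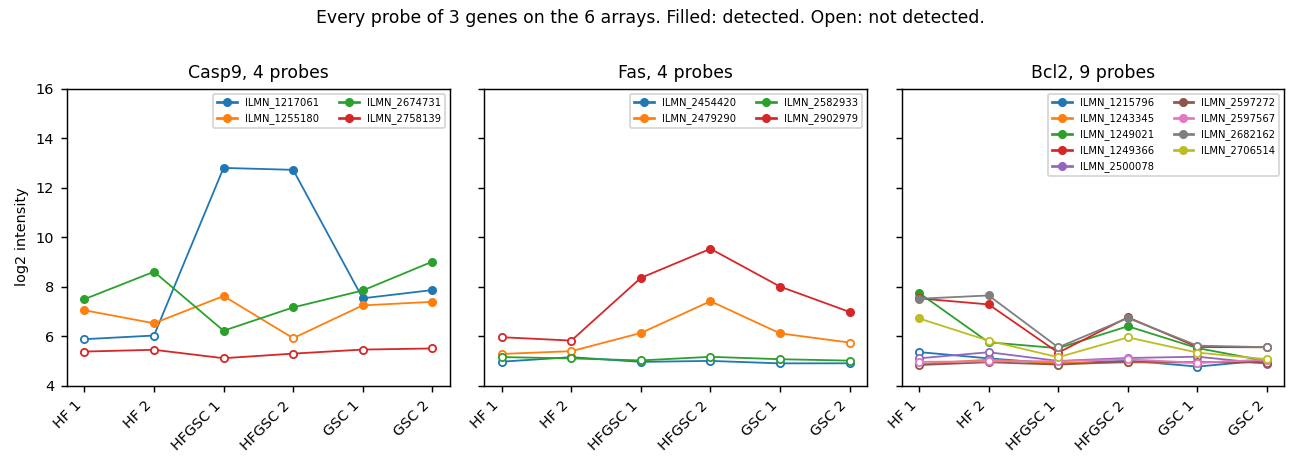
Normalized log2 intensity (vertical axis) on each of the 6 arrays (horizontal axis) for every probe of Casp9, Fas and Bcl2, with 1 coloured line per probe, filled points where the probe was detected and open points where it was not; the lines only join values of 1 probe. The Casp9 probe that read 12.80 and 12.72 in HFGSC stands apart from the other 3 Casp9 probes.

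Among the mitochondrial factors, Diablo rose and Cycs fell. Diablo, which leaves mitochondria and binds IAP proteins, read 11.69 and 12.08 on HF, 14.25 and 14.19 on HFGSC, and 13.91 and 14.23 on GSC, with all germline arrays above both HF arrays. It rose by 2.33 (SE 0.24, 5.03-fold, adjusted p = 0.00113) and by 2.18 (4.54-fold, adjusted p = 0.00123), and both calls were kept under all 15 alternatives. Its other probe was detected on no array. The HFGSC and GSC arrays differed by 0.15 (95% interval -0.42 to 0.72).

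Cycs, which encodes cytochrome c, fell by both tested probes. ILMN_1250564 read 13.80 and 13.55 on HF, 12.03 and 11.76 on HFGSC, and 12.70 and 12.45 on GSC, with no overlap between any of the groups. It fell by 1.78 (SE 0.26, 3.43-fold, adjusted p = 0.00406) in HFGSC, a call kept under all alternatives, and by 1.10 (2.15-fold, adjusted p = 0.0202) in GSC, a call lost when any single HF or GSC array was left out (highest adjusted p 0.148). ILMN_3076459 read 7.50 and 7.23, 5.95 and 5.86, and 6.20 and 6.14, and fell by 1.46 (adjusted p = 0.018) and by 1.20 (adjusted p = 0.0313). Leaving out any HF or HFGSC array ended the first of those calls (highest adjusted p 0.0784), and leaving out any of the 6 arrays ended the second (0.0501 to 0.144). Apaf1, the apoptosome scaffold, passed by 1 of 3 probes, in GSC: ILMN_1228561 read 8.84 and 8.08, 6.34 and 7.15, and 7.07 and 6.37, with differences of -1.71 (adjusted p = 0.0595) and -1.74 (adjusted p = 0.0496), and the call was lost whichever array was left out (0.0507 to 0.235). The other Apaf1 probes gave -1.25 (adjusted p = 0.104) and -1.13 (adjusted p = 0.133) in HFGSC, and -1.36 (adjusted p = 0.0741) and -1.25 (adjusted p = 0.0936) in GSC.

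Every tested probe of the pore-forming genes Bak1 and Bok fell in both germline groups. Bak1, which opens the outer mitochondrial membrane together with Bax, read 9.78 and 10.23 on HF, 5.80 and 7.83 on HFGSC, and 5.83 and 6.63 on GSC. The replicates of each germline group differed by more than those of HF, but none reached an HF array. Bak1 fell by 3.19 (SE 0.73, 9.12-fold, adjusted p = 0.0211) and by 3.77 (13.6-fold, adjusted p = 0.00986). Its probe was tested through HF alone. It was not detected on HFGSC replicate 1 or GSC replicate 1, so both folds rest partly on a signal at background. The first call was lost without either HF array or HFGSC replicate 1 (highest adjusted p 0.0985), and the second without HF replicate 2 or GSC replicate 1 (highest 0.0615).

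Bok, a Bax relative abundant in reproductive tissue, fell by both its probes. ILMN_2772077 read 12.06 and 11.76 on HF, 9.75 and 9.62 on HFGSC, and 8.64 and 9.44 on GSC, and ILMN_1237404 was detected on the HF arrays alone, at 6.81 and 7.01. The first fell by 2.23 (4.68-fold, adjusted p = 0.0122) in HFGSC, lost without either HF array (highest adjusted p 0.0917), and fell by 2.87 (7.31-fold, adjusted p = 0.00411) in GSC. The second was at least 1.98-fold lower in HFGSC (adjusted p = 0.00387) and at least 1.96-fold lower in GSC (adjusted p = 0.003). The GSC calls of both Bok probes were kept under every alternative that gave a value.

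The anti-apoptotic genes Bcl2, Bcl2l1, Bcl2l2 and Mcl1 gave no call in HFGSC over 10 tested probes, and Bcl2 alone fell in GSC. Bcl2, the founding member of the family, had 9 probes, of which 2 were tested. ILMN_2682162 read 7.51 and 7.64 on HF, 5.55 and 6.73 on HFGSC, and 5.62 and 5.55 on GSC, where it was not detected. It was at least 3.11-fold lower in GSC (adjusted p = 0.0154), and ILMN_1249366, at 7.53 and 7.28, 5.33 and 6.76, and 5.56 and 5.55, was at least 2.76-fold lower (adjusted p = 0.0275). The differences in HFGSC were -1.44 (adjusted p = 0.0544) and -1.36 (adjusted p = 0.0847). Without HF replicate 2, GSC replicate 1 or GSC replicate 2 both GSC calls were lost, and the call of ILMN_1249366 also without HF replicate 1 (highest adjusted p 0.0916 and 0.126), under median scaling and with no detection filter (highest 0.0774). Both probes were tested through HF alone.

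Mcl1, a short-lived survival protein, read 12.99 and 12.32 on HF, 11.80 and 12.65 on HFGSC, and 12.27 and 11.85 on GSC. Its groups overlapped in HFGSC against HF, with differences of -0.43 (95% interval -1.37 to 0.51) and of -0.60 (-1.53 to 0.34) in GSC. Bcl2l1, which encodes Bcl-xL, ranged from -0.74 to -0.54 over 3 probes in HFGSC and from -0.59 to -0.54 in GSC. Bcl2l2, which encodes Bcl-w and is needed for spermatogenesis in the mouse, ranged from -0.72 to -0.41 over 4 probes in HFGSC and from -0.94 to -0.35 in GSC.

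Among the genes of BH3-only proteins, which sense stress and set off the mitochondrial route, Bik had a large gain. Its probe read 5.46 and 6.37 on HF, where it was not detected, 11.95 and 11.24 on HFGSC, and 11.38 and 12.12 on GSC. The germline arrays stood together and far from HF, with a difference of 5.68 (SE 0.54, at least 35.5-fold higher, adjusted p = 0.000813) in HFGSC and of 5.84 (at least 39.5-fold, adjusted p = 0.000697) in GSC. Both calls were kept under all 15 alternatives, and HFGSC and GSC differed by -0.16 (95% interval -1.43 to 1.12). The Bik probe was tested through the germline groups alone, where it had to be high. Bmf, which is released from the cytoskeleton, read 7.27 and 6.28 on HF, 8.70 and 8.86 on HFGSC, and 9.57 and 10.49 on GSC. It was not detected on HF replicate 2, so its folds rest partly on a signal at background. Bmf too was tested through the germline groups alone. It rose by 2.00 (4.0-fold, adjusted p = 0.0471) in HFGSC, lost whichever array was left out (0.0634 to 0.262), and by 3.26 (9.55-fold, adjusted p = 0.00739) in GSC, lost without HF replicate 2 or GSC replicate 2 (highest 0.0575).

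The p53 targets Pmaip1 and Bbc3 moved in opposite directions in GSC. Pmaip1, which encodes Noxa, was not detected on HF at 6.36 and 6.23, and read 7.98 and 7.80 on HFGSC and 8.73 and 7.96 on GSC by its tested probe. That probe was tested through the germline groups alone, where it had to be high. In GSC it exceeded HF by at least 3.73-fold (adjusted p = 0.0193), lost without either HF array or GSC replicate 1 (highest adjusted p 0.129), and its difference in HFGSC was 1.59 (adjusted p = 0.0526). Bbc3, which encodes Puma, fell in GSC by 2 of 3 probes: ILMN_2920736 read 11.49 and 11.33, 10.25 and 10.60, and 9.22 and 9.96, and fell by 1.82 (3.53-fold, adjusted p = 0.0185). ILMN_2690621 fell by 1.46 (2.75-fold, adjusted p = 0.0294), and ILMN_2690620 gave -0.96 (adjusted p = 0.139). ILMN_2690621 was not detected on GSC replicate 2, so its fold rests partly on a signal at background. Leaving out either HF array or GSC replicate 1 ended both Bbc3 calls, and GSC replicate 2 the second one too (highest adjusted p 0.109 and 0.164). The Bbc3 differences in HFGSC, from -0.99 to -0.71, did not pass.

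No probe of Bad, Bid or Bcl2l11 passed. Bad, which binds Bcl-xL when growth factors are withdrawn, read 11.40 and 11.29, 9.54 and 10.91, and 9.10 and 10.18, with differences of -1.12 (adjusted p = 0.211) and -1.71 (adjusted p = 0.0689). Bid, which Casp8 cuts to join the surface route to the mitochondrial one, read 10.45 and 11.28, 11.33 and 11.52, and 11.01 and 11.37, with a difference of 0.56 (adjusted p = 0.35) in HFGSC. Bcl2l11, which encodes Bim, ranged from -0.69 to -0.28 over 3 probes in HFGSC and from -0.78 to -0.36 in GSC. Hrk was detected on no array.

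**Figure D3:**
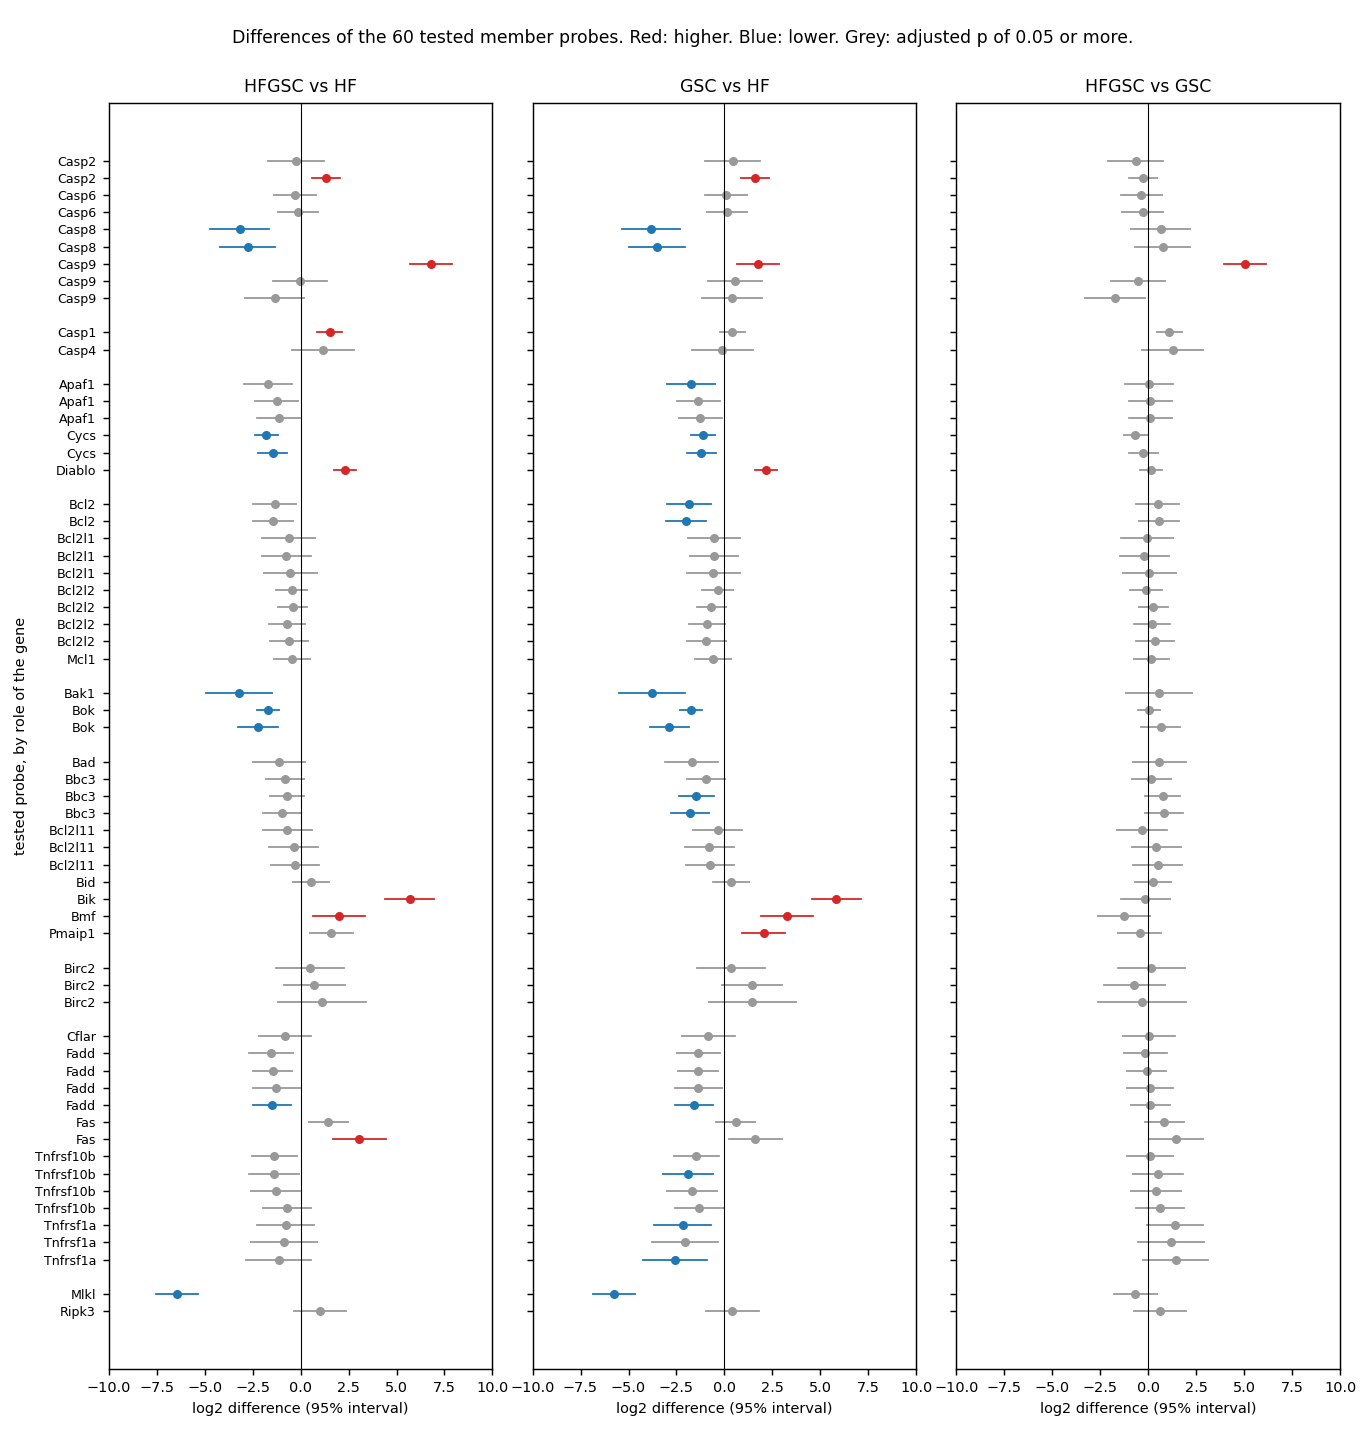
Difference of group means on the log2 scale (horizontal axis) with its 95% interval for each of the 60 tested member probes, grouped by role, in the 3 comparisons; red is higher and blue is lower at an adjusted p under 0.05, and grey did not pass. The 3 pore-forming probes (Bak1 and Bok) lie below 0 in both comparisons with HF, and between HFGSC and GSC 1 Casp9 probe alone is coloured.

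At the cell surface, 1 Fas probe rose in HFGSC, and probes of Fadd, Tnfrsf1a and Tnfrsf10b fell in GSC. Fas, the receptor for Fas ligand, had 4 probes, and ILMN_2902979 read 5.96 and 5.82 on HF, where it was not detected, 8.35 and 9.53 on HFGSC, and 8.001 and 6.98 on GSC. The 3 groups did not overlap. This probe was tested through the germline groups alone, where it had to be high. It rose by 3.05 (SE 0.59, at least 5.63-fold, adjusted p = 0.0114) in HFGSC, lost without either HF array (highest adjusted p 0.0749), and its difference in GSC was 1.60 (adjusted p = 0.0853). ILMN_2479290 read 5.28 and 5.39, 6.13 and 7.41, and 6.11 and 5.74, with a difference of 1.43 (adjusted p = 0.0529) in HFGSC, and the other Fas probes were detected on both arrays of no group. HFGSC exceeded GSC by 1.45 at ILMN_2902979 (95% interval 0.06 to 2.84), which did not pass (adjusted p = 0.715).

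Fadd, the adaptor between Fas and Casp8, had 4 tested probes, and 1 of them passed. ILMN_2874409 read 7.09 and 7.67 on HF, 5.43 and 6.36 on HFGSC, and 5.56 and 6.03 on GSC, and fell by 1.49 (2.81-fold, adjusted p = 0.0466) and by 1.59 (adjusted p = 0.0326). This probe was tested through HF alone. It was not detected on HFGSC replicate 1 or GSC replicate 1, so both sizes rest partly on a signal at background. The first call was lost under 11 of 14 alternatives, among them leaving out any array but HFGSC replicate 2 (highest adjusted p 0.236), and the second under 6, among them leaving out HF replicate 2 or either GSC array (highest 0.159). The other 3 probes ran from -1.54 to -1.28 in HFGSC (adjusted p from 0.0514 to 0.123) and from -1.38 to -1.36 in GSC (from 0.0542 to 0.0934), so the probes were alike in size and fell on both sides of the threshold.

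Tnfrsf1a, the main receptor for tumour necrosis factor, fell in GSC by 2 of 3 probes. ILMN_1241228 read 7.75 and 8.41 on HF, 6.49 and 8.10 on HFGSC, and 5.53 and 6.28 on GSC, and fell by 2.18 (4.52-fold, adjusted p = 0.0403). It was not detected on GSC replicate 1, so this fold rests partly on a signal at background. ILMN_2469333 was at least 4.45-fold lower (adjusted p = 0.035) and ILMN_2469329 gave -2.04 (adjusted p = 0.0797). Both calls were lost when any single HF or GSC array was left out (highest adjusted p 0.201 and 0.148). In HFGSC the replicates lay far apart, at 5.81 and 8.09 for ILMN_2469333, and no probe passed.

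Tnfrsf10b, the mouse receptor for Trail, fell in GSC by 1 of 4 probes. ILMN_2455181 read 8.91 and 9.29 on HF, 7.17 and 8.28 on HFGSC, and 7.21 and 7.22 on GSC, and fell by 1.89 in GSC (3.7-fold, adjusted p = 0.0414), lost when any single HF or GSC array was left out (highest adjusted p 0.211). Cflar, the Casp8 relative that blocks Casp8 at the receptor, read 10.06 and 9.44, 8.31 and 9.58, and 8.72 and 9.10, and its differences of -0.80 and -0.84 did not pass.

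Mlkl, the effector of necroptosis, showed the largest fall of the members called. It was tested through HF alone, where it had to be high. Its tested probe read 11.82 and 11.62 on HF, 5.48 and 5.07 on HFGSC, where it was not detected, and 6.17 and 5.74 on GSC, where it was detected on replicate 1 alone. No germline array came near the HF arrays. It was at least 55.4-fold lower in HFGSC (difference -6.44, SE 0.47, adjusted p = 0.000354). In GSC the measured means gave 54.3-fold lower (difference -5.76, adjusted p = 0.000479), with 1 of the 2 GSC readings below detection, so this fold rests partly on a signal at background and the size in the 2 groups is not compared. Both calls were kept under all 15 alternatives. A second Mlkl probe, which was not tested, was detected only on HF replicate 1, at 7.22.

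Ripk3, the kinase that phosphorylates Mlkl, gave no call. Its probe read 8.28 and 9.51 on HF, 9.63 and 10.18 on HFGSC, and 8.95 and 9.65 on GSC. Every HFGSC array lay above both HF arrays, but the difference of 1.01 (95% interval -0.36 to 2.38, adjusted p = 0.255) did not pass, nor did the 0.41 (-0.97 to 1.78, adjusted p = 0.646) in GSC.

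Of the IAP genes, Xiap and Birc3 were detected on no array by 4 probes and 1 probe. Birc2, a ubiquitin ligase that acts at the tumour necrosis factor receptor, had 3 tested probes, and none passed in this fit, which takes no account of the replicate number. ILMN_2990616 read 9.88 and 8.52 on HF, 11.49 and 9.15 on HFGSC, and 11.70 and 9.62 on GSC, so that replicate 1 stood above replicate 2 in every group. Its differences were 1.12 (adjusted p = 0.449) and 1.46 (adjusted p = 0.306). With the replicate number as a block in the limma fit, this probe passed in both comparisons (adjusted p = 0.0293 and 0.0094). ILMN_2741621 then passed in GSC (0.024). ILMN_2422023, at 7.40 and 5.77, 7.88 and 6.27, and 7.40 and 6.45, and ILMN_2741621, at 5.97 and 5.75, 7.37 and 5.76, and 8.08 and 6.51, had the same order. Replicates 1 and 2 differed in one direction in all 3 groups at 31 of 60 member probes (51.7%) and at 57.9% of all tested probes. What else the arrays of one replicate number share is not given in the labels.

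**Figure D4:**
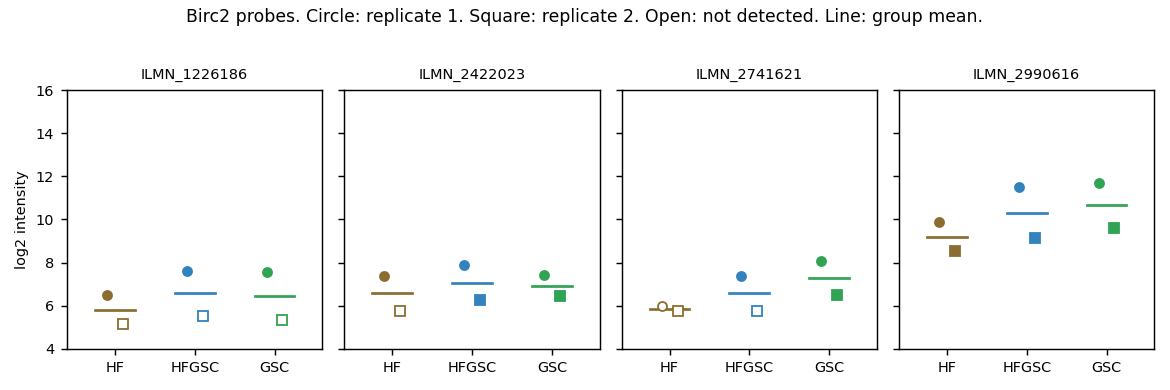
Normalized log2 intensity (vertical axis) of the 4 Birc2 probes, of which ILMN_1226186 was not tested, with circles for replicate 1, squares for replicate 2, open symbols where the probe was not detected and a line at the group mean. The circle lies above the square in every group, by 9.88 against 8.52 in HF, 11.49 against 9.15 in HFGSC and 11.70 against 9.62 in GSC for ILMN_2990616.

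Between the germline groups, 1 member probe passed, the Casp9 probe above, which is 1.67% of 60 beside 0.325% of all tested probes (0.132% higher and 0.193% lower), and the median member difference was 0.15. A p above the threshold does not show that the other members were alike, and their intervals, which are not adjusted, differ in width. HFGSC minus GSC was 0.64 (-0.88 to 2.17) for Casp8, 0.58 (-1.14 to 2.30) for Bak1 and -0.68 (-1.79 to 0.43) for Mlkl. Casp1 was 1.09 higher in HFGSC (0.45 to 1.74, adjusted p = 0.284), and Cycs 0.68 lower (difference -0.68, -1.29 to -0.06, adjusted p = 0.664). For Casp1, Cycs, the Fas probe and the Casp9 probe ILMN_2674731 given above, the interval left out 0 while the adjusted test did not pass.

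The calls rested unevenly on single arrays. In HFGSC against HF 7 of the 16 calls were kept under every alternative that gave a value, those of Casp1, Casp9, Diablo, Bik, Mlkl, 1 Cycs probe and 1 Bok probe. In GSC against HF 5 of the 23 were kept, those of Diablo, Bik, Mlkl and both Bok probes. The number of members called in HFGSC against HF was 7 without HF replicate 1 and 8 without HF replicate 2, and in GSC against HF it was 12 and 10 without those arrays, 8 once GSC replicate 1 was left out and 9 for GSC replicate 2. Calls over all probes changed as well when 1 array was left out. They were 2181 to 4068 in place of 4432 in HFGSC against HF, and 2373 to 5891 in place of 5460 in GSC against HF. Among the 60 tested probes, 38 were detected on both arrays of every group, 12 on those of 2 groups and 10 on those of 1 group, 7 of them HF. The other 34 member probes were left untested.

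Choices of processing ended calls too. Median scaling ended those of Casp2, the second Cycs probe and Fadd in HFGSC, and those of Apaf1, the second Cycs probe, Bcl2 ILMN_1249366, Bbc3 ILMN_2690621, Fadd, Tnfrsf10b and both Tnfrsf1a probes in GSC. Testing with no detection filter ended the second Cycs probe, Bmf and Fadd in HFGSC, and in GSC the same calls as median scaling and that of Casp9. The authors' log2 values and intensities with no background correction each ended Bmf and Fadd in HFGSC and Casp9 and Tnfrsf1a ILMN_1241228 in GSC. Without the mean-variance trend Casp2 and Fadd were lost in HFGSC, and Cycs ILMN_1250564, Fadd and Tnfrsf1a ILMN_2469333 in GSC. With only the compared arrays Bmf and Fadd were lost in HFGSC, the second Cycs probe in GSC, and Casp9 between HFGSC and GSC.

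Around the members, genes of 6 neighbouring lists were tested in the same fit. Their counts and medians carry the choice by detection described for the members and support no direction. How many list probes were tested through 1 group alone was not counted. Of the 14 tested probes of necroptosis and pyroptosis partners, from 9 genes, 2 rose and 7 fell in HFGSC against HF, with a median of -2.05. In GSC against HF 2 rose and 9 fell, with a median of -2.42. With bounds in place of folds at background, the medians were -1.82 and -1.79. By gene, 1 was higher and 5 were lower in each comparison. The share called was 64.3% and 78.6%, beside 22.5% and 27.7% over all tested probes. Without GSC replicate 2 the second count was 5 in place of 11, and leaving out HFGSC replicate 1 took the first from 9 to 6. Both risen probes were of Ripk4, a relative of the Ripk kinases known for its part in epidermal differentiation, whose first probe read 4.89 and 5.02 on HF, 12.48 and 12.20 on HFGSC, and 12.92 and 13.00 on GSC. It was not detected on HF and was at least 59.4-fold higher in HFGSC (adjusted p = 0.000146) and at least 91.6-fold in GSC (adjusted p = 0.000105). Aim2, a sensor of cytosolic DNA, was detected on the HF arrays alone and was at least 3.27-fold lower in HFGSC (adjusted p = 0.00694) and 3.24-fold lower, also a bound, in GSC (adjusted p = 0.00445).

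Ninj1, which ruptures the membrane of dying cells, read 8.99 and 9.79 on HF, 5.70 and 6.81 on HFGSC, and 5.54 and 6.22 on GSC. It fell 8.77-fold (adjusted p = 0.00883) and 11.4-fold (adjusted p = 0.00504). It was below the lowest detected signal on HFGSC replicate 1 and GSC replicate 1, so both folds rest partly on a signal at background. Gsdme, a gasdermin that caspases cut, read 9.32 and 8.91, 6.43 and 6.36, and 6.65 and 5.64, and fell 6.6-fold (adjusted p = 0.00904) and 7.83-fold (adjusted p = 0.00571). It was below the lowest detected signal on GSC replicate 2, so its GSC fold rests partly on a signal at background. The second Gsdme call was lost without GSC replicate 2 (0.0523), and those of Ripk4, Aim2 and Ninj1 were kept under every alternative that gave a value. Ninj1 and Gsdme lay higher on both HF arrays than on any germline array. Like Mlkl, Ninj1 was tested through HF alone, where it had to be high, so its likeness to Mlkl supports no direction.

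The list of tumour necrosis factor and death receptor signalling had 1 probe higher and 7 lower of 27 in HFGSC against HF and 2 higher and 8 lower in GSC against HF, with medians of -0.91 and -1.04. That is 29.6% and 37%, beside 22.5% and 27.7% over all tested probes. Leaving out 1 array brought the first count from 8 to between 1 (HF replicate 2) and 6 (HFGSC replicate 2), and the second from 10 to between 3 and 5 where the array was of HF or GSC. Tnfrsf25, a death receptor, was not detected on HF at 5.23 and 4.87 and read 8.33 and 8.68 on HFGSC and 9.83 and 10.62 on GSC, at least 4.16-fold higher (adjusted p = 0.00431) and at least 13.7-fold higher (adjusted p = 0.000857). Tnfrsf12a, the receptor for Tweak, read 13.28 and 13.76, 10.28 and 11.63, and 9.59 and 10.75, and fell 5.92-fold (adjusted p = 0.0183) and 10.2-fold (adjusted p = 0.00601). Every germline array was below both HF arrays for Tnfrsf12a and above them for Tnfrsf25. The Tnfrsf12a call in HFGSC was lost without either HF array or HFGSC replicate 1 (highest adjusted p 0.0963). Tnfrsf1b fell 9.01-fold (adjusted p = 0.0128) and 7.62-fold (adjusted p = 0.0146), Ikbkg, the scaffold of the IkB kinase, fell 4.3-fold in HFGSC (adjusted p = 0.0146), and Tradd, the adaptor of Tnfrsf1a, was at least 3.42-fold lower in GSC (adjusted p = 0.00724). Each of these calls was lost without at least 1 array: Tnfrsf1b without HF replicate 2 or HFGSC replicate 1 (highest adjusted p 0.0717), and in GSC without either HF array or GSC replicate 1 (0.0851), Ikbkg without either HF array or HFGSC replicate 1 (0.12), and Tradd without GSC replicate 2 (0.0642). The Tnfrsf1b fold in HFGSC rests partly on a signal at background.

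In the list of executioner caspases and nucleases, 3 probes rose and 2 fell of 13 in HFGSC, and 3 rose and 3 fell in GSC. These make 38.5% and 46.2%, beside 22.5% and 27.7% over all tested probes. The risen probes were all of Parp1, a DNA repair enzyme that executioner caspases cut, with ILMN_2971744 at 12.51 and 12.42 on HF, 14.76 and 14.33 on HFGSC, and 14.41 and 14.35 on GSC, 4.25-fold (adjusted p = 0.00115) and 3.77-fold (adjusted p = 0.00134) higher. The fallen ones were of Htra2, a mitochondrial protease, by 5.17-fold (adjusted p = 0.0324) and 6.18-fold (adjusted p = 0.0192) at ILMN_1230193. The Parp1 calls were kept under every alternative, while Htra2 was lost without any single array but HFGSC replicate 2 in HFGSC (highest adjusted p 0.185) and without any single HF or GSC array in GSC (0.119), so that 2 or 3 of the list's calls were left. Dffa, which holds the apoptotic nuclease in check, gave -0.70 and -0.73 at ILMN_1249164, none of which passed. Acin1 gave 0.32 and 0.13 at ILMN_2770667 and -0.14 and -0.23 at ILMN_2724347, also without passing.

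The IAP list had 3 of 6 probes lower in HFGSC and 4 in GSC, with none higher in either. This is 50% and 66.7% of a short list, beside 22.5% and 27.7% over all tested probes. All 3 in HFGSC were of Birc5, which encodes survivin, a protein of dividing cells, at 12.39 and 12.44 on HF, 9.70 and 10.31 on HFGSC, and 10.75 and 11.35 on GSC by ILMN_2603699. It fell 5.3-fold (adjusted p = 0.0058) and 2.57-fold (adjusted p = 0.0387), and the HF arrays were the highest. In GSC Naip2 was at least 1.81-fold lower (adjusted p = 0.0254) and Aven fell 2.81-fold (adjusted p = 0.0304), while Pea15a gave -1.68 and -1.57 without passing. Naip2 and Aven gave -0.71 and -0.22 in HFGSC without passing. The GSC calls of Birc5, Naip2 and Aven were lost when any single HF or GSC array was left out (highest adjusted p 0.18, 0.168 and 0.175), which left 0 or 1 call in the list.

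The other Bcl2 relatives had 1 of 9 probes lower in HFGSC and 2 in GSC, or 11.1% and 22.2%, beside 22.5% and 27.7% over all tested probes. Bcl2l15 was detected on the HF arrays alone, at least 3.35-fold lower in HFGSC (adjusted p = 0.00198) and at least 3.32-fold lower in GSC (adjusted p = 0.00239), and Tmbim1 fell 4.35-fold in GSC (adjusted p = 0.04), a call lost when any single HF or GSC array was left out (highest adjusted p 0.201), while its HFGSC difference was -1.64. Bnip3l gave 1.23 and 1.19, Bcl2l13 -0.62 in HFGSC and Bag1 0.19 in GSC, without passing.

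Regulators and targets of p53 had 1 probe higher and 1 lower of 32 in HFGSC and 0 higher and 3 lower in GSC. Those shares, 6.25% and 9.38%, lay below the 22.5% and 27.7% over all tested probes in this fit. They depend on the fit: with the replicate number as a block, 7 and 16 of the 32 passed. Over all 19715 tested probes 8603 and 9509 then passed. Ppp1r13b, a p53 cofactor, rose 4.67-fold in HFGSC (adjusted p = 0.00972) and gave 1.25 in GSC (adjusted p = 0.0603). Phlda3, a p53 target that restrains Akt, read 10.38 and 10.10 on HF, 7.32 and 8.87 on HFGSC, and 6.46 and 6.28 on GSC, and fell 4.41-fold (adjusted p = 0.0467) and 14.6-fold (adjusted p = 0.00498). Plk2 fell 4.36-fold (adjusted p = 0.0362) and Ccng1 2.13-fold (adjusted p = 0.0366) in GSC, while Trp53inp1 gave 1.93 in HFGSC (adjusted p = 0.114) and Plk2 -1.50 there. The Phlda3 call in GSC was kept under every alternative that gave a value, but in HFGSC it was lost without any single array but HFGSC replicate 2 (highest adjusted p 0.195). Ppp1r13b was lost without either HF array (0.0641), and Plk2 and Ccng1 when any single HF or GSC array was left out (0.153 and 0.224). Over the list, leaving out 1 array gave 0 to 4 calls in HFGSC, the fewest without HF replicate 2 and the most without HFGSC replicate 2, and 1 to 6 in GSC, the most without either HFGSC array. Among the list calls, median scaling also ended those of Phlda3 in HFGSC and of Tmbim1, Birc5 and Naip2 in GSC, and testing with no detection filter ended Htra2 and Phlda3 in HFGSC and Tmbim1, Birc5, Naip2, Aven, Plk2 and Ccng1 in GSC. Without the trend Birc5 and Ccng1 were lost in GSC, and with only the compared arrays Phlda3 in HFGSC.

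Between HFGSC and GSC no probe of the 6 lists passed, though the same limma test had 64 calls and 1302 probes at an unadjusted p under 0.05 over the whole array. The smallest adjusted p-values in each list belonged to Tnfrsf25 (difference -1.72, adjusted p = 0.428), Map3k7 (-1.06), Fasl (-0.72) and Tnfrsf12a (0.79) among the receptor genes, and to Aven (1.26, adjusted p = 0.473), Birc5 (-1.05), Naip2 (0.51) and Pea15a (-0.11) among the IAP genes. Phlda3 (1.72, adjusted p = 0.61), Cdkn1a (1.91, adjusted p = 0.612), Ppp1r13b (0.97) and Zmat3 (1.25) led the p53 list. Ripk4 (-0.62, adjusted p = 0.892), Il18 (0.78), Gsdmd (0.91) and Ticam1 (0.27) led the necroptosis and pyroptosis list. Dffa (-0.49 at ILMN_2704900, adjusted p = 0.93), Aifm1 (-0.42), Parp1 (0.17) and Htra2 (0.49 at ILMN_2688944) led the executioner list, and Bcl2l13 (-0.50 at ILMN_1223268, adjusted p = 0.934), Bcl2l12 (0.46), Tmbim1 (0.49) and Bcl2l15 (-0.24) the Bcl2 relatives.

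**Figure D5:**
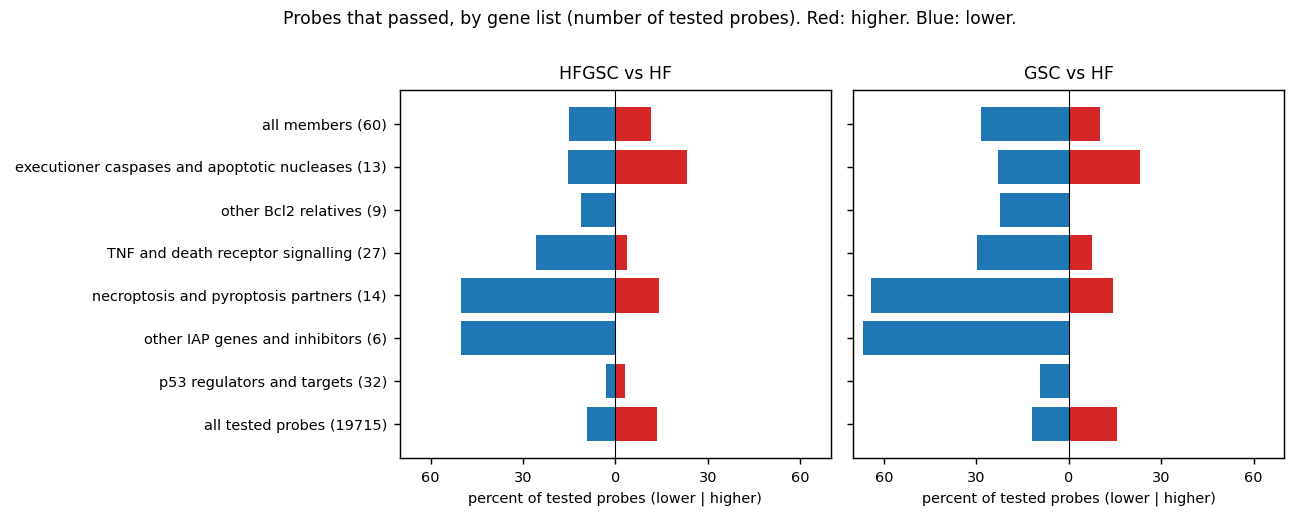
Percent of tested probes that passed (horizontal axis, lower to the left of 0 and higher to the right) for the members, each of the 6 neighbouring lists and all tested probes, in the comparisons with HF, with the number of tested probes in brackets. The bars of the necroptosis and pyroptosis partners add up to 64.3% and 78.6%, beside 22.5% and 27.7% for all tested probes.

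The members' promoters had a higher median CG count than all RefSeq windows, which are not limited to genes tested on the array. Their median share of G and C was 60% beside 52.7%, and several members had more than 1 window. RefSeq held 47 windows for 34 of the 37 members, and their CG count had a median of 19, from 1 to 46, beside a median of 7 over 32851 windows of the same length. These 34 include Bax, Ripk1 and Trp53 and leave out Bik, Pmaip1 and Tnfrsf10b, so they are not the 34 with a named probe. Among the genes called in HFGSC against HF the median was 13.5 both for those with a risen probe (8 windows of 6 genes, 3 to 42) and for those with a fallen probe (6 windows of 6 genes, 5 to 32). In GSC against HF the medians were 19.5 and 26. Of 8 motifs searched on both strands, GGGCGG was in 59.6% of member windows beside 35.7% of all windows, CACGTG in 12.8% beside 7.15%, and CCAAT in 27.7% beside 37.4%. TGACGTCA was in 4.26% beside 1.79%, the interferon response element core in 4.26% beside 3.44%, and TTTCCCGC or TTTGGCGC in 4.26% beside 1.56%. The NF-kB site was in 17% beside 8.46%, and the p53 half-site in 8.51% beside 8.36%. These are descriptions of letters in a window, and the Mlkl window printed above held none of the 8 motifs searched.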

How the data were processed

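Total RNA was amplified to biotin-labelled cRNA, per the labels' protocols. The deposited table holds linear bead intensity values, not normalized, with a detection p-value for each, per the file headers. The authors' other deposited table, in log2, has a common column median of 7.046, each column within 0.148 of the quantile normalized log2 intensities. Its scale is uncentred log2, and a direction does not apply to 1 channel. Per the submitters' processing notes, the software was GenomeStudio 2011.1 with R 3.0.2. All value columns matched a sample, leaving 0 unused, and mean intensities lay between 911 and 1149 per array.

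Of 45281 probes, the platform annotation gave 34885 one gene symbol, 18 several and 10378 none. Entrez identifiers of 34807 matched RefSeq (GRCm38.p6), which changed 0 symbols. The intensities went through limma 3.58.1's neqc under R 4.3.3 (background inferred from detection p-values, offset 16, quantile normalization, log2). Linear models covered all 6 arrays, with 3 residual degrees of freedom and a mean-variance trend, and were tested on simulated data. "At least" folds set the brighter group's mean against the higher of the dim probe's own signal and the lowest detected signal. A marker list's summed level is the log2 of its summed linear signals. Members with a called probe or with disagreeing probes are named, and up to 4 genes per neighbouring list and comparison by smallest adjusted p. Members and lists were chosen with earlier results of these data known. Alternatives changed 1 choice at a time.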

Additional observations from a re-analysis of the deposited data

How the results depend on the processing

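Between 13 and 15 alternatives gave a value for each member or named list probe. Of 80 called differences 0 changed sign under any of them, while 93 of the 220 that did not pass had estimates on both sides of 0. The called ones were chosen as large against their error, and the alternatives reuse the same arrays. This contrast is therefore no support for their directions. Of the called members 16 of 16, 23 of 23 and 1 of 1 kept their calls with the replicate number as a block, and 17, 16 and 0 calls were added. In HFGSC against HF, GSC against HF and HFGSC against GSC, that replicate block gave 33, 39 and 1 member calls and 8603, 9509 and 239 calls over all probes. It added Birc2 ILMN_2990616 in HFGSC and GSC against HF (adjusted p = 0.0293 and 0.0094) and Birc2 ILMN_2741621 in GSC (0.024), and gave 7 and 16 calls among the 32 probes of p53 regulators and targets. The labels tie the numbers to nothing, and differences between replicates 1 and 2 correlated across probes at 0.449 (HFGSC with HF), 0.768 (GSC with HF) and 0.569 (GSC with HFGSC), a hint from the data and not from the design. In GSC against HF, member calls were 15 with median scaling, 14 with no detection filter and 14 with the highest-mean probe per gene. Those last 2 alternatives changed the number of features tested. With the highest-mean probe, calls over all features were 2896 in HFGSC against HF and 3501 in GSC against HF. In HFGSC against GSC they were 21 with no detection filter, 19 with no mean-variance trend and 0 with only the compared arrays, where 0 members passed too; that last setting has fewer arrays, and for the trend the cause was not tested. Leaving out 1 array gave 7 to 17, 8 to 24 and 0 to 0 member calls, and 2181 to 4068, 2373 to 5891 and 0 to 24 over all probes. Probes near background limit every fold given as "at least".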
